A study of Mus musculus with 6 samples.

Results

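The proteins that fill the granules of neutrophils, and the calcium-binding alarmins that make up much of their cytosol, are encoded by genes whose RNA is among the most abundant in bone marrow. Transcripts of 10 such genes (S100a8, S100a9, Ltf, Camp, Ngp, Retnlg, Mmp8, Lcn2, Lyz2 and Chil3) were followed in sorted mouse hematopoietic stem cells (HSCs). The genes were chosen by name, and all 10 were found among the 19978 genes measured. Of the 10, 9 reached the level needed for testing, which was an FPKM (fragments scaled to transcript length and library size) of 1 or more in 3 or more of the 6 libraries. Mmp8 did not.

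Each of the 6 samples held 100 HSCs sorted from bone marrow, and RNA was copied and amplified with the low-input Smart-seq2 method before sequencing. The groups were 3 wild-type (WT) libraries and 3 libraries whose genotype label is Piezo1 cKO, a conditional knockout of the mechanically gated cation channel Piezo1 (libraries named S in the labels, called labelled cKO here). The comparison asks what the loss of Piezo1 does to HSC transcripts. The labels name neither the Cre driver, the age of the mice nor the surface markers of the sort, and whether the 3 libraries of each genotype derive from different mice is not given either. The p-values therefore cover the spread among these 6 samples alone, and that spread may be technical.

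Neutrophils build their granules in waves while they mature in the marrow. Enzymes of the primary granules are made first, in promyelocytes. Lactoferrin, cathelicidin, lipocalin and collagenase of the secondary granules follow in myelocytes, under transcription factors of the C/EBP family, and the gelatinase of the tertiary granules comes later still. S100A8 and S100A9 form the heterodimer calprotectin, which binds calcium and zinc, and which acts on Toll-like receptor 4 as an alarmin when released from cells.

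Total counts ranged from 3907259 in WT 3 to 72116120 in labelled cKO 2. In WT 3, 76.1% of the counts fell on the 100 most abundant genes, against 29.8% to 46.1% elsewhere. Piezo1 stood at 0.539, 3.97 and 1.57 FPKM across WT 1, 2 and 3 and at 0.175, 8.81 and 0.819 across labelled cKO 1, 2 and 3. Its highest level stood in a library labelled cKO. A value for the whole gene does not show which part was deleted, so it cannot settle the genotype. Each direction given holds for the libraries as labelled. Of 15 HSC markers, between 8 and 10 reached an FPKM of 1 in WT 2 and the labelled cKO libraries, against 2 in WT 1 and 3 in WT 3. Kit, the receptor used to define HSCs, was at 59.5 in labelled cKO 3, at 2.54 in WT 2 and at 0.778 or less elsewhere, so the markers did not bear out the label evenly. In bulk samples, fewer cells of a type and less RNA per cell cannot be told apart.

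The start regions of the alarmin pair, which lie side by side on chromosome 3, and of Camp, Ngp and Ltf, which lie near each other on chromosome 9, are shown so that their sequence can be read beside the levels of these neighbours. Each run holds the 250 bases before the RefSeq start and the first 20 after it (build GRCm38.p6), written 5′ to 3′ on the strand of the gene. Capitals mark 3 letter patterns searched on both strands: the C/EBP pattern TTGCNNAA, the core GAGGAA bound by PU.1, and TATAAA, the core of a TATA box.
S100a8, chr3:90668821-90669090, plus strand: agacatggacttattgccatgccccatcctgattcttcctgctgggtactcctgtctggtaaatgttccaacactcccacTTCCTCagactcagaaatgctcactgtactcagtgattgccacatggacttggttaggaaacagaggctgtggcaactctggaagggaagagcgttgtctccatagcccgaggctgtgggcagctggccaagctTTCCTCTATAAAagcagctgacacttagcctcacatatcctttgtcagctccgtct
S100a9, chr3:90695702-90695971, minus strand: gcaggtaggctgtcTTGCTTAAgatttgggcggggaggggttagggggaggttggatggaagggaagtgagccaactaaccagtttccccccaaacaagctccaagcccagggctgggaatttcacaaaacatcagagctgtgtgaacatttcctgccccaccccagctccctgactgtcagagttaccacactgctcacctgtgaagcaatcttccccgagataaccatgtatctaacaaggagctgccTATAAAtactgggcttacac
Camp, chr9:109849437-109849706, minus strand: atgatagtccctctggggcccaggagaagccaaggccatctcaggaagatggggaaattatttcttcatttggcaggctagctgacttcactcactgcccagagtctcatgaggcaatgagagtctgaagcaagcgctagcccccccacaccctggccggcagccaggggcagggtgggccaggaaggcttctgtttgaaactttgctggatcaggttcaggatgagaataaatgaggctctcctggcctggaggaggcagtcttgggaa
Ngp, chr9:110419558-110419827, plus strand: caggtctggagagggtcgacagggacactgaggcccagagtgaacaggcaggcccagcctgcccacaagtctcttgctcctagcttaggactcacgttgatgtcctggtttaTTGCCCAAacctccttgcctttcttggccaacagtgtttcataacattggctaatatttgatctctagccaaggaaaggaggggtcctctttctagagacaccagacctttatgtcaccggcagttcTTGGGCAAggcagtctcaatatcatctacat
Ltf, chr9:111019042-111019311, plus strand: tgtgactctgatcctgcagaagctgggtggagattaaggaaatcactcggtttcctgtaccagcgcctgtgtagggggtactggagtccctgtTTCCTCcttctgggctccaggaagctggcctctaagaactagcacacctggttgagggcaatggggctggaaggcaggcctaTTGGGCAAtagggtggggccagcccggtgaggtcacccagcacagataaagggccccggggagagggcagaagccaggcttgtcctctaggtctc

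The C/EBP pattern stood in 6 of the 10 promoters (Lcn2, S100a9, Mmp8, Ngp, Ltf and Retnlg) and in 10.8% of the 32851 promoters of the RefSeq table, each searched over 300 bases. Ngp held it in 2 places, at -138 and -11 from the start, and Ltf once, at -75. The GAGGAA core stood in 4 of the 10 promoters and in 28.3% of all promoters. TATAAA stood in 4 of the 10, against 13.6% of all. In S100a8 it began at -30, directly after a GAGGAA core read on the other strand. The sites in S100a9, Chil3 and Mmp8 began at 1, -3 and -3, that of Mmp8 on the other strand. Camp and Lyz2 held none of the 3 patterns in this window. No match of these letters is a measured binding site, and none overlapped another pattern in the 5 regions shown. S100a8 (chromosome 3, 90668978 to 90670035) and S100a9 (chromosome 3, 90692632 to 90695721) lie within 26744 bases of each other, with no other gene of the table between them. Camp, Ngp and Ltf lie within 1195389 bases of chromosome 9, from 109847379 to 111042767. The 27 other genes of the table in that stretch include 3 that were tested, and 0 of those 3 were highest in WT 1 or labelled cKO 2, against 30.3% of all tested genes. Coordinates are printed as deposited. Start and end matched GENCODE M21, on GRCm38, for 9 of the 10 genes.

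The 10 genes together took 2.58% of all counts in WT 1 (95% Wilson interval 2.576 to 2.591) and 3.28% in labelled cKO 2 (3.276 to 3.284). They took 0.103% in WT 2 (0.1026 to 0.1041), 0.180% in WT 3 (0.1759 to 0.1844), 0.0869% in labelled cKO 1 (0.0859 to 0.0880) and 0.480% in labelled cKO 3 (0.4780 to 0.4813). The intervals cover counting error only, since amplified reads without molecular identifiers are not independent molecules. WT 1 and labelled cKO 2 thus stood apart from the other libraries of their own genotype, and the highest share was 37.7 times the lowest. The mean share was 0.956 ± 1.41% over the WT libraries and 1.28 ± 1.74% over the labelled cKO libraries (SD, n = 3 each), a difference inside the spread. The genes that made up the share also differed. S100a8 alone held 47.6% of the counts of the set in WT 1, 51.5% in labelled cKO 2, 59.7% in labelled cKO 1 and 42.8% in labelled cKO 3. Lyz2 held 79.3% of them in WT 2, and Lcn2 held 52.7% in WT 3.

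**Figure D1:**
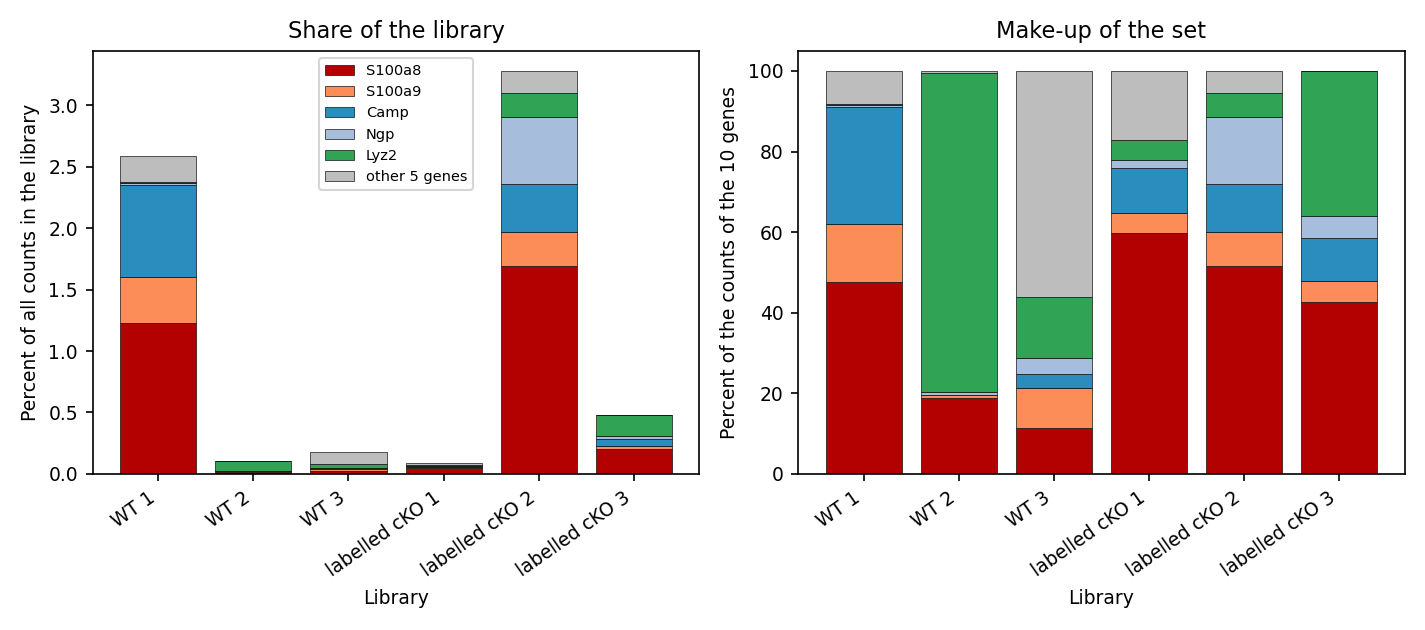
Left, percent of all counts of each library that fell on the 10 genes, stacked by gene; right, the same counts as percent of the set's own total. WT 1 (2.58%) and labelled cKO 2 (3.28%) stand above the other 4 libraries, Lyz2 makes up 79.3% of the set in WT 2, and the 5 genes drawn in grey are Ltf, Retnlg, Mmp8, Lcn2 and Chil3.

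S100a8 (ENSMUSG00000056054), which encodes 1 subunit of calprotectin, was the most abundant gene of the whole table in labelled cKO 2 and the third most abundant in WT 1. Its FPKM was 14869, 251 and 212 across WT 1, 2 and 3 and 625, 22024 and 2659 across labelled cKO 1, 2 and 3. The lowest value, in WT 3, stood on 807 counts, and the highest, in labelled cKO 2, on 1217582. WT 1 and labelled cKO 2 were high, labelled cKO 3 was intermediate, and the genotypes overlapped. S100a9 (ENSMUSG00000056071), which encodes the other subunit, stood at 5958, 11.3 and 245 FPKM across WT 1, 2 and 3 and at 70.2, 4802 and 420 across the labelled cKO libraries. It was highest in the same pair of libraries, and its lowest value, in WT 2, stood on 429 counts. The log2 fold change of labelled cKO over WT was 0.80 ± 1.23 for S100a8 (± standard error; edgeR, adjusted p = 0.819) and -0.15 ± 1.76 for S100a9 (edgeR, adjusted p = 0.981).

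Camp (ENSMUSG00000038357; chromosome 9, 109847379 to 109849617) encodes cathelicidin, the precursor of an antimicrobial peptide kept in secondary granules. Its FPKM was 8296, 2.53 and 57.2 across WT 1, 2 and 3 and 108, 4731 and 611 across labelled cKO 1, 2 and 3, a range of 3283-fold. Its rank among all genes was 4 in WT 1, 10 in labelled cKO 2 and 4902 in WT 2, where it stood on 139 counts. WT 1, labelled cKO 2 and labelled cKO 3 were its 3 highest libraries in that order, as for S100a9, and the genotypes overlapped.

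Ngp (ENSMUSG00000032484; chromosome 9, 110419747 to 110423012), a granule protein related to the cathelicidins, had a different order. Its FPKM was 110, 4.49 and 42.0 across WT 1, 2 and 3 and 12.1, 4019 and 195 across labelled cKO 1, 2 and 3. Labelled cKO 2 stood 20.6-fold above the next library, labelled cKO 3, while labelled cKO 1 lay below WT 1 and WT 3. Ltf (ENSMUSG00000032496; chromosome 9, 111019271 to 111042767) encodes lactoferrin, the iron-binding protein that defines secondary granules. It stood at 176, 0.196 and 1.02 FPKM across WT 1, 2 and 3 and at 0.395, 76.5 and 0.129 across the labelled cKO libraries. Only WT 1 and labelled cKO 2 held Ltf above an FPKM of 2, on 13078 and 21017 counts, and the other 4 libraries held 21 to 53 counts.

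Lcn2 (ENSMUSG00000026822; chromosome 2, 32384633 to 32387797), the lipocalin that captures bacterial siderophores, was spread over more libraries. Its FPKM was 435, 0.324 and 258 across WT 1, 2 and 3 and 44.3, 54.5 and 0.169 across labelled cKO 1, 2 and 3. WT 1 and WT 3 were the 2 highest, WT 2 and labelled cKO 3 stood on 65 and 36 counts, and the genotypes overlapped. Mmp8 (ENSMUSG00000005800; chromosome 9, 7558456 to 7568485), the neutrophil collagenase of secondary granules, was near the limit of detection. It had 12, 0 and 6 counts in WT 1, 2 and 3 and 4, 8 and 0 counts in labelled cKO 1, 2 and 3, an FPKM of at most 0.426. A count of 0 allows up to 3, or 0.0463 CPM (counts scaled to library size) in WT 2 and 0.0429 CPM in labelled cKO 3, for counting error only. Mmp8 thus stayed at trace level in labelled cKO 2 and WT 1, where Camp and S100a8 were among the 10 most abundant genes.

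Retnlg (ENSMUSG00000022651; chromosome 16, 48872621 to 48874496), a secreted resistin-like protein of neutrophils, was a single-library gene. Its FPKM was 8.56, 1.78 and 19.2 across WT 1, 2 and 3 and 6.46, 1796 and 0.955 across labelled cKO 1, 2 and 3. Labelled cKO 2 held 84849 counts, and the other 5 libraries held 45 to 144. Chil3 (ENSMUSG00000040809; chromosome 3, 106147554 to 106167564), a chitinase-like lectin of neutrophils and macrophages, stood at 3.84, 0.618 and 15.6 FPKM across WT and at 1.92, 92.6 and 0.479 across the labelled cKO libraries. It likewise stood on 12044 counts in labelled cKO 2 and on 62 to 140 elsewhere. For both genes the second highest FPKM was in WT 3, the shallowest library, on 63 counts of Retnlg and 140 of Chil3.

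Lyz2 (ENSMUSG00000069516; chromosome 10, 117277331 to 117282321) encodes lysozyme, which cleaves bacterial cell walls and is made by monocytes and macrophages as well as neutrophils. Its FPKM was 42.3, 558 and 148 across WT 1, 2 and 3 and 26.6, 1353 and 1175 across labelled cKO 1, 2 and 3. Labelled cKO 2 and labelled cKO 3 were its highest libraries, as for Ngp. WT 2 and labelled cKO 3, which were low in Ltf, Lcn2 and Retnlg, were high in Lyz2, and WT 1, which was highest in Camp, Ltf and Lcn2, was the second lowest. Lyz1, a near-identical copy, had 93 to 167 counts per library, so the split between these copies is uncertain at low levels. Lyz2 had the narrowest range of the 9 tested genes, 50.8-fold, against 104-fold for S100a8 and 3283-fold for Camp.

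**Figure D2:**
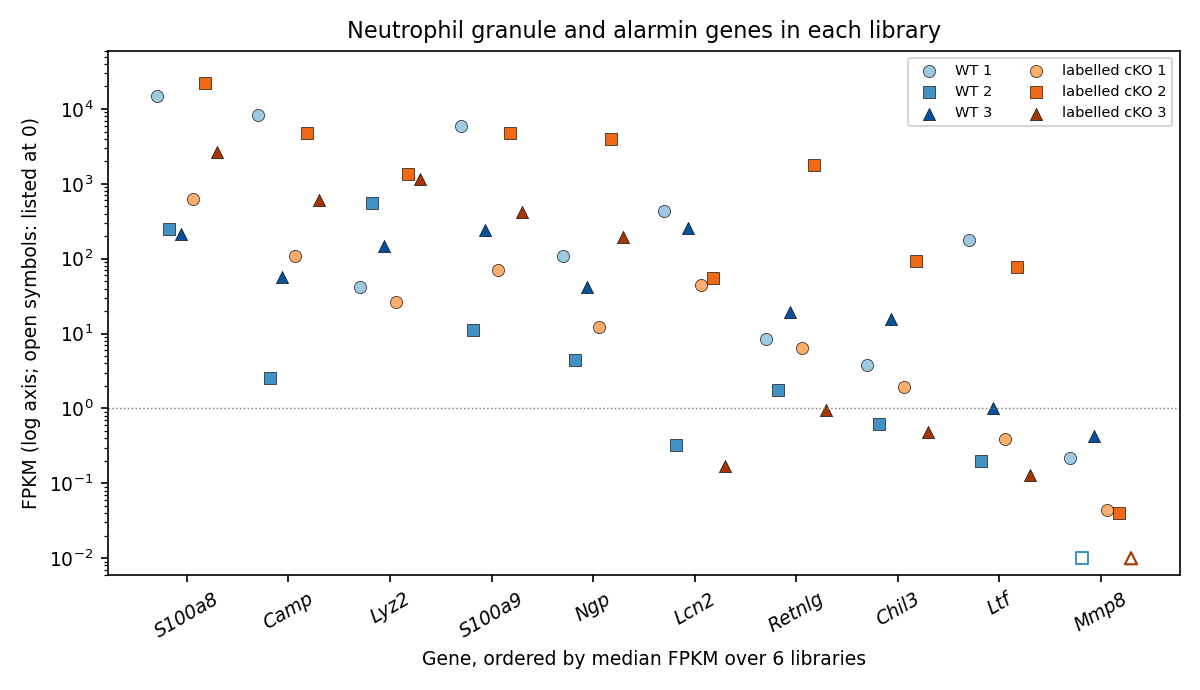
FPKM of each gene on a log axis, 1 symbol per library, with blue for WT, orange for labelled cKO and open symbols at the bottom for values listed at 0. WT 1 and labelled cKO 2 lead in S100a8, S100a9, Camp and Ltf, labelled cKO 2 alone leads in Ngp, Retnlg and Chil3, and blue and orange symbols overlap for every gene.

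Ordered by the median FPKM over the 6 libraries, the levels ran from S100a8 (1642) through Camp (359), Lyz2 (353), S100a9 (332), Ngp (76.2), Lcn2 (49.4), Retnlg (7.51), Chil3 (2.88) and Ltf (0.708) to Mmp8 (0.0420). Compared within each library, 4 of the 9 pairs of neighbours in this order kept it in all 6 libraries: S100a8 above Camp, S100a9 above Ngp, Retnlg above Chil3 and Ltf above Mmp8. The other 5 pairs changed places in at least 1 library, so their order was not settled beyond the spread over libraries. Labelled cKO 2 held the highest level of 5 genes, WT 1 of 4 and WT 3 of Mmp8. For 4 genes, S100a8, S100a9, Camp and Ltf, the 2 highest libraries were WT 1 and labelled cKO 2. That pair was the highest for 94 of the 4173 tested genes, or 2.25%. The pair was picked out from the values of the set, so this share is a description and no test of the set. Labelled cKO 3 held the lowest level of 4 genes (Ltf, Retnlg, Lcn2 and Chil3) and WT 2 of 3 (S100a9, Camp and Ngp).

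No gene of the set passed the test of a difference between genotypes. In edgeR's quasi-likelihood test with Benjamini-Hochberg adjustment, 0 of 9 tested genes passed an adjusted p of 0.05, as did 0% of the 4173 genes of the table. An unadjusted p under 0.05 was reached by 2 of the 9, Ngp and Retnlg, and by 6.88% of all tested genes. The log2 fold change was 4.96 ± 2.11 for Ngp and 6.36 ± 2.90 for Retnlg (± standard error; edgeR, adjusted p = 0.692 each). Both rest on labelled cKO 2: without it the log2 fold change of Ngp was 1.02 and that of Retnlg turned to -1.002. DESeq2, which called 8.71% of the genes it adjusted, called 0 of the 3 genes of the set to which it gave an adjusted p (Chil3, Lcn2 and Lyz2) and gave none to the other 6. limma on log2(FPKM + 1) also called 0 of 9, with 0% called over the table, and put 0 of 9 at an unadjusted p under 0.05 against 4.77% of all tested genes. Exact two-sided permutation tests on log2(FPKM + 1) gave p from 0.4 to 0.9 over the 10 genes, where 3 libraries against 3 allow no p below 0.1.

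Of the other tested genes, Chil3 and Lyz2 had positive log2 fold changes of 2.74 ± 2.41 and 2.24 ± 2.00 (± standard error; edgeR, adjusted p = 0.747 each). Lcn2, Ltf and Camp had negative ones, of -2.56 ± 2.31 (edgeR, adjusted p = 0.747), -1.12 ± 2.37 (edgeR, adjusted p = 0.860) and -0.55 ± 1.56 (edgeR, adjusted p = 0.895). In all, 5 of the 9 were positive and 4 negative, with a median of 0.80, against a median of 1.10 over all tested genes. Relative to that shift, 4 of the 9 lay above and 5 below. With median-of-ratios scaling, the median of the set was -1.46 against 0.52 over all genes, and S100a8 turned to -1.46. The genotypes overlapped for each of the 10 genes, where 11.6% of tested genes showed no overlap. Without WT 1, the sign of Camp, Ltf and S100a9 turned to positive, at 6.53, 5.92 and 4.39. Leaving out both WT 1 and WT 3, chosen after seeing the data, left WT 2 as the lone WT library, assumed to vary like the others. S100a8 then had a log2 fold change of 5.27 (edgeR) and was the 1 gene called of 4173 (0.024%). That call cannot be read as a genotype difference. WT 1 held the high S100a8 of the WT libraries, at 14869 FPKM against 251 in WT 2 and 212 in WT 3. Removing WT 1 thus set the direction, and 1 library gives no WT spread. Leaving out WT 1 and labelled cKO 2 instead, also chosen after seeing the data, gave 0 calls.

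**Figure D3:**
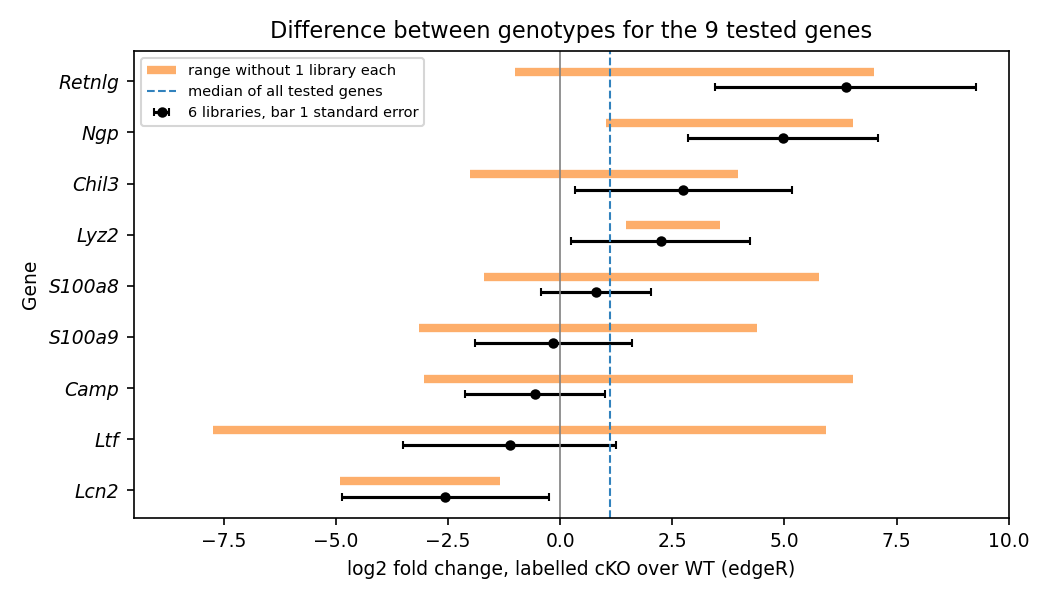
log2 fold change of labelled cKO over WT for the 9 tested genes (edgeR; black points with 1 standard error) and, in orange, the range of the value when each library is left out in turn. The dashed line is the median of all tested genes, 1.10; the orange ranges cross 0 for every gene other than Ngp, Lyz2 and Lcn2.

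The genes did not keep fixed proportions to each other from library to library. The ratio of S100a8 to S100a9, which encode partners of 1 heterodimer, was 2.50, 22.2 and 0.865 in WT 1, 2 and 3 and 8.90, 4.59 and 6.34 in labelled cKO 1, 2 and 3. The ratio of Camp to Ngp was 75.1 in WT 1 and 1.18 in labelled cKO 2, the 2 libraries richest in the set. In the same pair of libraries the ratio of Camp to Ltf was 47.1 and 61.9, and that of Lyz2 to Ngp 0.383 and 0.337. The ratio of Lcn2 to Ltf ran from 0.713 in labelled cKO 2 to 253 in WT 3, and that of Retnlg to Ngp from 0.00490 in labelled cKO 3 to 0.533 in labelled cKO 1. Over the 7 pairs compared, ratios ranged between 15.7-fold and 369-fold, and the genotypes overlapped in 6 of them. The exception was the ratio of Camp to Ltf, at 47.1, 12.9 and 56.0 across WT and 272, 61.9 and 4737 across the labelled cKO. The 4737 of labelled cKO 3 stood on 36 counts of Ltf and the 272 of labelled cKO 1 on 53. In WT 2 and WT 3 the ratio stood on 50 and 21 counts of Ltf. The gap between genotypes was narrow, from 56.0 in WT 3 to 61.9 in labelled cKO 2. The pair of Camp and Ltf was singled out after its values were seen, and 3 libraries against 3 cannot give an exact permutation p below 0.1.

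**Figure D4:**
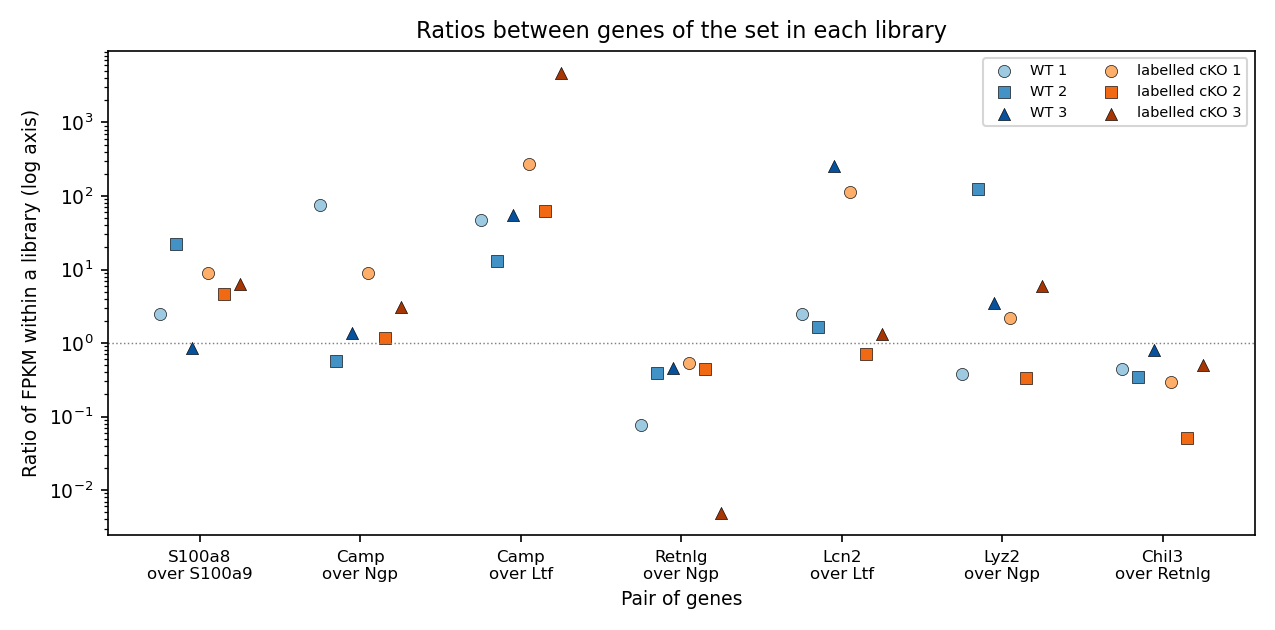
Ratio of the FPKM of 2 genes within each library, for 7 pairs, on a log axis, with blue for WT and orange for labelled cKO. The ratio of S100a8 to S100a9 lies between 0.865 and 22.2 and that of Camp to Ngp between 0.563 and 75.1. Only in the ratio of Camp to Ltf do the genotypes not overlap. The gap there, from 56.0 in WT 3 to 61.9 in labelled cKO 2, rests on 21 counts of Ltf in WT 3.

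Genes of the primary granules are made before those of the secondary granules. The summed FPKM of 9 such genes was highest in WT 1 (2379), where nearly all of it was Srgn, and next in labelled cKO 2 (1331). Of the 9, 5 were tested and 0 passed (edgeR), 3 with positive and 2 with negative fold changes. Srgn, the granule proteoglycan core, had an FPKM of 2375, 582 and 7.35 across WT and 412, 960 and 994 across the labelled cKO. Prtn3, the serine protease proteinase 3, had 0.169, 207 and 1.31 across WT and 0.212, 174 and 70.3 across the labelled cKO, and Serpinb1a, an inhibitor of such proteases, 0.761, 197 and 2.70 against 11, 169 and 102. Both were low in WT 1, where the secondary granule genes Camp, Ltf and Lcn2 were highest. Mpo, Elane and Ctsg, which define primary granules, stayed at or below an FPKM of 3.27 in each library, apart from Ctsg at 14.6 in labelled cKO 1. Ms4a3 was found in WT 2 alone, on 5054 counts.

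Of 17 other secondary and tertiary granule genes, 7 were tested and 0 passed (edgeR), 3 positive and 4 negative with a median of -0.94. Wfdc21, a small secreted protein of the whey acidic protein family, was also highest in WT 1 and labelled cKO 2, at 556, 0.120 and 7.15 across WT and 0.902, 274 and 0.444 across the labelled cKO. Pglyrp1, which binds peptidoglycan, was high in labelled cKO 1 and 2 only, at 644 and 193, against at most 2.72 elsewhere (edgeR, log2 fold change 7.81, unadjusted p = 0.00920, adjusted p = 0.692). Cyba, a subunit of the oxidase that makes superoxide, was highest in WT 3 at 5325, on 30275 counts (edgeR, log2 fold change -4.52, unadjusted p = 0.0399, adjusted p = 0.692). Chil1, a chitinase-like protein, was highest in WT 2 at 33.4 (edgeR, log2 fold change -4.85, unadjusted p = 0.0351, adjusted p = 0.692). These 3 were the genes of the list at an unadjusted p under 0.05. Cd177 was found at 62.5 in labelled cKO 2 and at 1.09 or less elsewhere. Mmp9, the gelatinase of tertiary granules, had 16 counts or fewer in each library.

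Of 8 other S100 genes in the table, 7 were tested and 0 passed (edgeR), 5 with positive and 2 with negative fold changes. Their summed FPKM was highest in labelled cKO 2 (3114), as was S100a8, and lowest in WT 3 (169). S100a13 stood at 837, 1321 and 15.1 FPKM across WT and at 490, 558 and 998 across the labelled cKO libraries. S100a1 had 4.70, 763 and 21.6 across WT and 1288, 1218 and 586 across the labelled cKO, and S100a11 16.2, 453 and 60.9 against 25.4, 974 and 663. WT 2, which was lowest in S100a9, thus held high levels of S100a13, S100a1 and S100a11. WT 1, which was highest in S100a9, was low in the latter 2.

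Most genes through which the alarmins signal, and most factors that drive granule genes, did not reach the level needed for testing. Tlr4, the receptor of calprotectin, had an FPKM of at most 0.268, and its co-receptor Ly96 was at 60.9 in labelled cKO 3 and at 0.683 or less elsewhere. Bsg, a surface glycoprotein that binds S100A9, was present throughout at 4.08 to 174, and Myd88, the adaptor of Toll-like receptors, at 0.0916 to 8.61. Of 8 such genes, 3 were tested and 0 passed (edgeR). Cebpe, the C/EBP factor required for secondary granules, had 0 counts in 5 libraries and 5 in labelled cKO 3. Cebpa stayed at an FPKM of 2.08 or less, and Csf3r, the G-CSF receptor, at 1.16 or less. Cebpd had 7.74 and 36.1 in labelled cKO 1 and 2 and 0.943 or less elsewhere. Runx1 was highest in WT 1 at 21.7, and Cebpb lay between 0.155 and 5.46. Spi1 was at 6.39 in WT 2 and at 1.72 or less elsewhere, and Stat3 lay between 0.595 and 4.23. Of 11 regulators, 4 were tested and 0 passed (edgeR). All 4 had negative fold changes (median -1.09), as did 1338 of the 4173 tested genes.

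Surface genes of mature neutrophils and markers of monocytes were read beside the set. Of 11 mature neutrophil genes in the table, 2 reached an FPKM of 1 in WT 1 and 2 in labelled cKO 2, the libraries richest in the set, against 1 in WT 2, 5 in WT 3, and 1 each in labelled cKO 1 and 3. Their summed FPKM lay between 7.17 and 78.7 across WT and between 3.64 and 271 across the labelled cKO. In labelled cKO 2 it came mostly from G0s2 (157) and Ifitm6 (113). Ly6g was listed at 0 in WT 1 and in labelled cKO 2, and Cxcr2 had 0 counts in labelled cKO 2 and 8 in WT 1. Ccl6, a chemokine, was highest in labelled cKO 3 at 70.5. Of the 11 genes, 3 were tested and 0 passed (edgeR). Over 12 monocyte and macrophage markers, the summed FPKM lay between 16.4 and 108 across WT and between 6.84 and 278 across the labelled cKO, with 3 tested and 0 passed (edgeR). Ctss, a lysosomal protease, had 5.47, 82.3 and 22.8 across WT and 2.39, 191 and 276 across the labelled cKO, with its 3 highest levels in the libraries highest in Lyz2, while Csf1r was at 1.49 or less throughout. Lgals3 was highest in labelled cKO 2 at 33.1 and Cd68 in WT 2 at 21.7. The part of other cell types in the levels of the set was not tested.

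**Figure D5:**
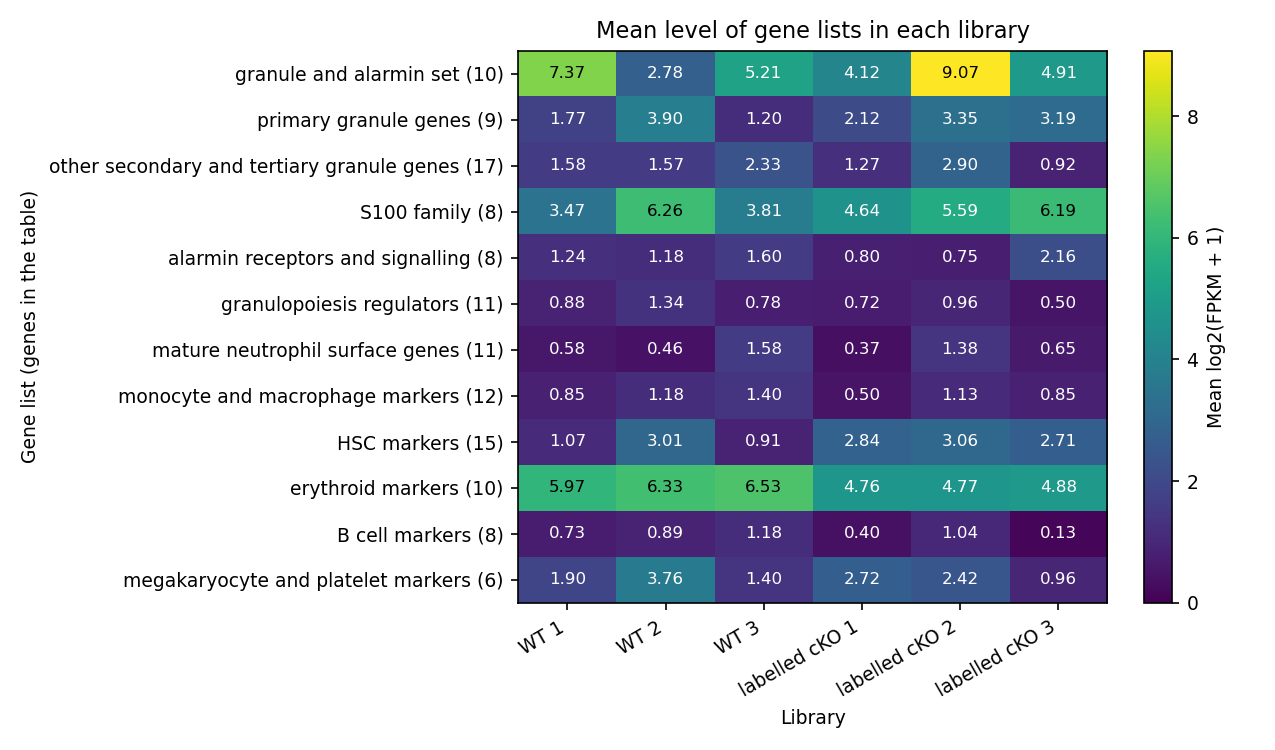
Mean log2(FPKM + 1) of the 10 genes and of 11 other gene lists in each library, with the number of genes of each list in the table in brackets. The set ranges from 2.78 in WT 2 to 9.07 in labelled cKO 2, while mature neutrophil surface genes range from 0.37 to 1.58 and HSC markers are lowest in WT 1 (1.07) and WT 3 (0.91).

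The mean profile of the set over the 6 libraries was compared with 2965 other tested genes with a mean FPKM of at least 5. Predicted genes, with Gm or Rik names, were left out beforehand. The 8 most like the mean profile of the set in log2(FPKM + 1) had a Pearson r of 0.88 to 0.93. These were Kdelr1, which returns proteins to the endoplasmic reticulum, Wfdc21, the zinc finger factor Maz, Ddit3, a stress factor of the C/EBP family, Acap1, Prkacb, a catalytic subunit of protein kinase A, Asnsd1 and Tmem97. Kdelr1 stood at 10.3, 0.357 and 1.65 FPKM across WT and at 0.786, 85.1 and 0.179 across the labelled cKO libraries. Ddit3 had 2.37, 0.139 and 2.202 across WT and 0.585, 38.8 and 0.112 across the labelled cKO, and Acap1 107, 1.14 and 1.58 against 0.142, 77.9 and 8.53. Each of the 8 had its 2 highest FPKM values in WT 1 and labelled cKO 2, with the exception of Tmem97, whose second highest was in WT 3. All profiles share the same 6 libraries and their depths, so the r values are a description.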

How the data were processed

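Each of 6 libraries came from 100 sorted HSCs, 3 per genotype label. The authors deposited 1 table with a count and an FPKM value for each gene in each library, per the file headers. The submitters' processing notes list StringTie 2.1.6, HISAT2 2.2.1 and cutadapt 1.9 beside edgeR and DESeq2, without saying which step each served. They name the build GRCm39, whereas 9 of the 10 genes have the coordinates of GENCODE M21 on GRCm38. Of counts from 1 to 40, 40.2% to 48.8% per library were multiples of 4. The counting method is not stated in the labels or file headers.

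Genes with an FPKM of at least 1 in at least 3 libraries (4173) were tested with edgeR 4.0.16 (TMM scaling, quasi-likelihood, genotype as the only term, Benjamini-Hochberg at 0.05, R 4.3.3). Each standard error is the log2 fold change divided by the root of the F statistic. Alternatives were DESeq2 1.42.0 (local dispersion trend), limma 3.58.1 on log2(FPKM + 1) and log2(FPKM + 0.1), median-of-ratios scaling, 2 other filters, a replicate block and left-out libraries. The fits were also run on simulated data, and the outcome is not reported here. The biological coefficient of variation, edgeR's measure of spread between libraries of a genotype, was 1.49 in the main fit. At such a spread, a gene that did not pass is not shown to be unchanged. The 10 genes and the lists were chosen with earlier results of these data known. Named genes are the 10, Piezo1, the 3 most abundant of each list and the 8 most alike in profile; other list members were named after their values were seen. A list member that the rule names is not reported here. Promoters are from RefSeq (10 of 10 matched by symbol).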

Additional observations from a re-analysis of the deposited data

How the results depend on the processing

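Over the 15 alternatives, the count of genes of the set past the threshold was 0 wherever more than 1 WT library was kept. Without both WT 1 and WT 3, which left 1 WT library, S100a8 had a log2 fold change of 5.27. DESeq2 gave an adjusted p to 3 of the 9. The sign of Ngp and Lyz2 held in each of the 15. Signs turned for the other 7. With median-of-ratios scaling and with DESeq2, S100a8 was -1.46, which was also the median of the set. With no filter, Ltf was 0.20, Camp 0.75 and S100a9 1.18. limma gave Camp 2.51 and S100a9 1.00 at a pseudocount of 1, and 2.65 and 1.03 at 0.1. Without both WT 1 and labelled cKO 2, Retnlg was -0.91, Camp 4.04, Chil3 -2.16 and S100a9 1.39. Without both WT 1 and WT 3, Lcn2 was 6.96, Ltf 7.20 (also the median of the set), Camp 9.68 and S100a9 7.48.

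Leaving out 1 library at a time gave 0 calls in each case (adjusted p of 0.282 to 0.988 over the 9 genes). The log2 fold change ran from -1.002 to 7.01 for Retnlg, -4.90 to -1.35 for Lcn2, 1.02 to 6.53 for Ngp, -7.74 to 5.92 for Ltf, -3.04 to 6.53 for Camp, -2.00 to 3.97 for Chil3, -1.71 to 5.77 for S100a8, -3.15 to 4.39 for S100a9 and 1.47 to 3.56 for Lyz2. The median of the set ran from -2.00 to 5.77. The difference in the share of counts, 0.326 percentage points higher in the labelled cKO, ran from -0.672 to 1.14 and was -0.0591 once the 100 most abundant other genes were left out of the total.

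Over all genes, 0 were called by edgeR (287 at an unadjusted p under 0.05). The count was 163 with no filter, 2 at a mean FPKM of at least 5 and 298 by DESeq2. The cause of these changes was not tested. Whether replicate numbers pair the samples could not be settled from 3 libraries per group. Same-numbered libraries correlated at 0.13, 0.15 and -0.16 in their deviations from the group means. With the replicate block, 0 genes were called, Camp was 3.82, Chil3 -0.58 and S100a9 1.21, while Retnlg moved from 6.36 to 0.027 and S100a8 from 0.80 to 3.60. Low counts limit the precision of Mmp8 (0 to 12 counts), and values of Retnlg, Chil3 and Ltf outside their high libraries stand on 21 to 144 counts.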

Other observations

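Erythroid, B cell and megakaryocyte genes were read as markers of other marrow cells. Of 10 erythroid genes, 6 were tested and 0 passed (edgeR). All 6 had negative fold changes, as did 1338 of the 4173 tested genes. The summed FPKM of the 10 lay between 10148 and 22802 across WT and between 2052 and 3015 across the labelled cKO. Taken singly, 11.6% of all tested genes showed no overlap between genotypes. The most abundant of the 10 were Hbb-bs, Hbb-bt and Hba-a2, which encode globin chains. WT 3, low in S100a8, had the highest sum. Of the B cell genes, Vpreb3, a chaperone of the immature B cell receptor, had an FPKM of 156 in labelled cKO 2 and 0.513 or less elsewhere, while Cd79b, of the same receptor, had 85.8 in WT 2. Cd79a, its partner, was at 11.1 or less. The 2 tested B cell genes did not pass (edgeR). Pf4, a platelet chemokine, had 260, 1814 and 7.49 across WT and 115, 128 and 0.217 across the labelled cKO. Itga2b, a platelet integrin, was highest in labelled cKO 1 at 177 and Gp1bb in WT 2 at 52.7, and of 3 tested megakaryocyte genes 0 passed (edgeR).

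Of 15 HSC markers, 7 were tested and 0 passed (edgeR). Of the 7, 6 had positive fold changes, as did 2835 of the 4173 tested genes. Ly6a, a surface marker of HSCs, was highest in WT 1 at 601, the library highest in Camp and lowest in Hlf, a factor of HSCs, at 0.0823. In labelled cKO 2, which was highest in S100a8, Hlf had 46.4. Myct1 was at 79.8 there and at 0.532 in WT 1.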
